A study of Mus musculus with 18 samples.

Results

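Dimethylation of lysine 36 on histone H3 (H3K36me2) was mapped by ChIP-seq in activated mouse B cells, and the regions described here are the H3K36me2 sites that lie far from genes. Peaks of the 3 wild-type (WT) H3K36me2 lists on chromosomes 1 to 19 were merged if they shared at least 1 bp. An interval was kept when it was under 10 kb wide, held a peak in at least 2 of the 3 WT lists and lay over 50 kb from every protein-coding gene body in GENCODE M21. This left 7502 far sites of 51180 sites that met the other criteria at any distance, which is 14.7%. The other sites were 28219 that overlapped a coding gene body (genic sites, 55.1%) and 15459 that lay between 1 bp and 50 kb from one (30.2%). The far sites were thus chosen by the WT H3K36me2 peaks themselves. Their WT signal is given as a description. Recovery and KDM2A were tested on lists that did not choose the sites scored, while the far share of each list's own peaks and the comparison of peak heights do use the WT lists that chose the sites.

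The cells were splenic B cells of C57BL/6 mice, either WT or deficient in Mir155 in the germline (KO), so that the microRNA miR-155 was missing from every cell of the KO animals. Both genotypes were enriched by depleting CD43, Ter119 and CD4 positive cells and were cultured for 2 days at 1% oxygen with anti-CD40 antibody, an F(ab')2 fragment against IgM, and interleukin 4. The chromatin was fixed with EGS followed by formaldehyde, and was precipitated for H3K36me2 or for the demethylase KDM2A. Each of the 4 combinations of genotype and antibody had 3 libraries. Replicate 1 came from a male and replicates 2 and 3 from females in both genotypes, so sex and replicate 1 cannot be told apart. In the check of the labelled cell type, 7 of 8 B cell genes carried an H3K36me2 peak over the gene body in at least 2 WT lists, all but Ms4a1, against 1 of 6 T cell genes (Cd3d). The same was true of 4 of 5 myeloid genes (Itgam, Lyz2, Adgre1 and Csf1r). KDM2A peaks lay over 8 of 8 B cell genes, 1 of 6 T cell genes and 1 of 5 myeloid genes. A peak is not expression.

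H3K36me2 is written by the NSD enzymes and ASH1L, and it spreads over broad domains both inside genes and between them. In intergenic chromatin it marks territory that is open to enhancers, and it limits the spread of repressive methylation on lysine 27. KDM2A removes methyl groups from H3K36me2. It is brought to chromatin by a CXXC zinc finger that binds unmethylated CpG, which is why it is best known at CpG islands and gene starts. The rule for far sites keeps them away from protein-coding genes only; starts of other genes and CpG islands were not excluded.

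The central 300 bases of 3 far sites are shown because each stands for a pattern described below, and CpG dinucleotides are in capitals. They are reference sequence of the plus strand from RefSeq, build GRCm38.p6. The line for Ly86 is the site with the highest mean H3K36me2 fold in the KO lists among sites present in all 6 H3K36me2 lists. The line for Pdia4 is the strongest site that was in all 3 WT lists and no KO list. The line for the Igk region is the site farthest from a coding gene.
Ly86, chr13:37504123-37504422: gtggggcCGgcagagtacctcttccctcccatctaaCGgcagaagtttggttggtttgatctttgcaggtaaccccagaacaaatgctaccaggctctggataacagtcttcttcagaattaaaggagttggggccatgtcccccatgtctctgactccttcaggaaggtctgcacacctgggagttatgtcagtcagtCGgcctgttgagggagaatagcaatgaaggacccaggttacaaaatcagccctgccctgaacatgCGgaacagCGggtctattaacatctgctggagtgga
Pdia4, chr6:47738009-47738308: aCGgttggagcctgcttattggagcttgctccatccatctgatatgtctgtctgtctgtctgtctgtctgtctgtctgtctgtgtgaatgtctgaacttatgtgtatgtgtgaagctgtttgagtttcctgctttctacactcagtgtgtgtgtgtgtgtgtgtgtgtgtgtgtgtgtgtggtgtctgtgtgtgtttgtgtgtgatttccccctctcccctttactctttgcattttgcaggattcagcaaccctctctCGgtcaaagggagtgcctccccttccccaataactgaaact
Igk region, chr6:69153761-69154060: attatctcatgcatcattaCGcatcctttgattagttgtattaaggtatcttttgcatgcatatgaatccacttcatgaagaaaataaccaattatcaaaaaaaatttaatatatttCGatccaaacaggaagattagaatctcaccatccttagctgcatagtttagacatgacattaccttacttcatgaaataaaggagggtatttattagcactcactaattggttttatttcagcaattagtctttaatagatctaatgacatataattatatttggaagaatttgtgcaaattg
The windows hold 5, 2 and 2 CpG in that order. The Igk window had a GC content of 29.0%. The Pdia4 window is built largely of short TGTC and TG repeats, and 56.7% of its bases are marked as repeats in the reference.

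Far sites were of modest height, and the rule kept their width under 10 kb. Their width ran from 253 to 9991 bp with a median of 2250 bp. The median was 2115 bp at genic sites and 2151 bp at sites up to 50 kb from a gene. Together the far sites covered 21.3 Mb, or 2.53% of the 841 Mb of autosome that lies over 50 kb from a coding gene. Their median distance to a coding gene was 139252 bp, and 4786 of them lay over 100 kb away, 821 over 500 kb and 251 over 1000 kb. The fold enrichment that MACS2 gave each peak over the input, averaged over the WT lists with a peak, had a median of 2.57 over the far sites. Genic sites had 2.56 and sites up to 50 kb from a gene 2.58. All 3 WT lists held a peak at 3508 far sites, and 2 lists at 3994. Of the far sites, 5747 had a peak in WT replicate 1, 6327 in WT replicate 2 and 6438 in WT replicate 3.

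At the distance limit, the far sites just outside 50 kb lay 50003 bp from Auh (WT mean fold 2.61) and 50007 bp from Cntnap2 (2.62). The sites just inside it lay 49965 bp from Tpd52 (2.51) and 50000 bp from Rgs13 (2.61). At the width limit, the widest far sites measured 9961 bp, near Mbnl1 (2.68), and 9991 bp, near Cradd (2.70). The narrowest intervals left out for their width measured 10021 bp, near Nck2 (2.65), and 10039 bp, near Ifng (2.70). Sites on either side of a limit thus had like folds, and 564 intervals that were far from genes were left out for being 10 kb or wider.

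In sequence, the far sites were poorer in GC and CpG than the genic ones. Their median GC content was 42.5%, against 44.9% at genic sites and 44.7% at sites up to 50 kb from a gene. The territory over 50 kb from coding genes as a whole had 39.8%. Far sites had a median of 6.96 CpG per kb, against 9.40 at genic sites. Repeats covered a median of 23.2% of the far sites and 21.6% of the genic ones, against 38.4% of the far territory. By GENCODE annotation, 5634 far sites (75.1%) overlapped no gene of any kind. A lncRNA gene was overlapped by 1600 (21.3%), a pseudogene by 188 and an immunoglobulin or T cell receptor segment by 56, and 487 had a gene start of any biotype within 2 kb of their centre. The choice of annotation mattered little for coding genes: 65 far sites overlapped a gene that RefSeq calls coding, and 228 lay within 50 kb of one. An assembly gap lay within 50 kb of 33 far sites.

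The far sites were not spread evenly along the genome. Over the far territory, the density was 8.92 sites per Mb, against 28.5 genic sites per Mb of gene body. Chromosome 10 had the highest density, with 866 sites and 19.5 per Mb, followed by chromosome 13 with 786 sites and 17.1 per Mb. Chromosome 5 had the lowest, with 185 sites and 4.00 per Mb. With neighbours joined across gaps of up to 50 kb, the sites fell into 884 clusters. Of these, 204 clusters had 10 or more sites, and they held 5438 of the far sites (72.5%). A further 258 sites stood alone. Most far H3K36me2 sites thus lay in groups of 10 or more, while their distance from coding genes was set by the rule. The grouping was not compared with that of genic sites, which are denser.

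The largest cluster lay beside Zeb2, a zinc finger transcription factor gene that acts in immune cell differentiation. It held 203 sites over 1396 kb, chr2:45168070-46564080, starting 50674 bp from Zeb2 in the desert that separates it from Acvr2a, and far sites covered 48.9% of its bases. Of the 203 sites, 117 were in all 3 WT lists. KO replicate 1 held a peak at 148 of them, KO replicate 2 at 122 and KO replicate 3 at 123. Of them, 16 had no peak in any KO list, and 5 had a KDM2A peak in any of the 6 KDM2A lists.

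The cluster next in size lay in the Igk locus, which holds the kappa light chain V segments that B cells rearrange. It held 186 sites over 1701 kb, chr6:68210947-69912340. Its sites covered 25.2% of its bases, and 70 of them were in all 3 WT lists. A peak was present at 92 of its sites in KO replicate 1, at 64 in KO replicate 2 and at 60 in KO replicate 3, and 49 had none. GENCODE does not class V segments as protein-coding genes, so these sites count as far although many lie between V segments. The third cluster lay between Nmbr and Cited2, at chr10:16472428-17510691, with 142 sites over 1038 kb. Cited2 encodes a CBP/p300-binding transcriptional co-regulator that restrains the hypoxia response. The KO lists held 81, 45 and 50 of these sites in replicates 1, 2 and 3, and 41 had no KO peak. The KO shares were higher beside Zeb2 in each of the 3 libraries (72.9, 60.1 and 60.6%) than at Igk (49.5, 34.4 and 32.3%) and Cited2 (57.0, 31.7 and 35.2%). These are descriptions of single loci, and no test was made of their difference.

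Far sites also lay beside other genes that direct B cell identity and activation. On a list of 40 B cell regulators, 20 were the nearest coding gene of at least 1 far site, and together they were nearest to 782 far sites (10.4%). Of the sites from 1 bp to 50 kb from a gene, 168 (1.09%) were nearest to a gene on the list. After Zeb2 with 203, the most were at Myc, the growth regulator induced in selected B cells, with 116. Then came Mef2c (63), needed for B cell proliferation after receptor stimulation, Bcl11a (62), Satb1 (54) and Ebf1 (49), the pioneer factor of the B lineage. Cd83, an activation marker, had 44, and Bcl6, the master regulator of the germinal centre, had 20. A gene beside a wide desert has more room for far sites, and the counts are not divided by that room.

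**Figure D1:**
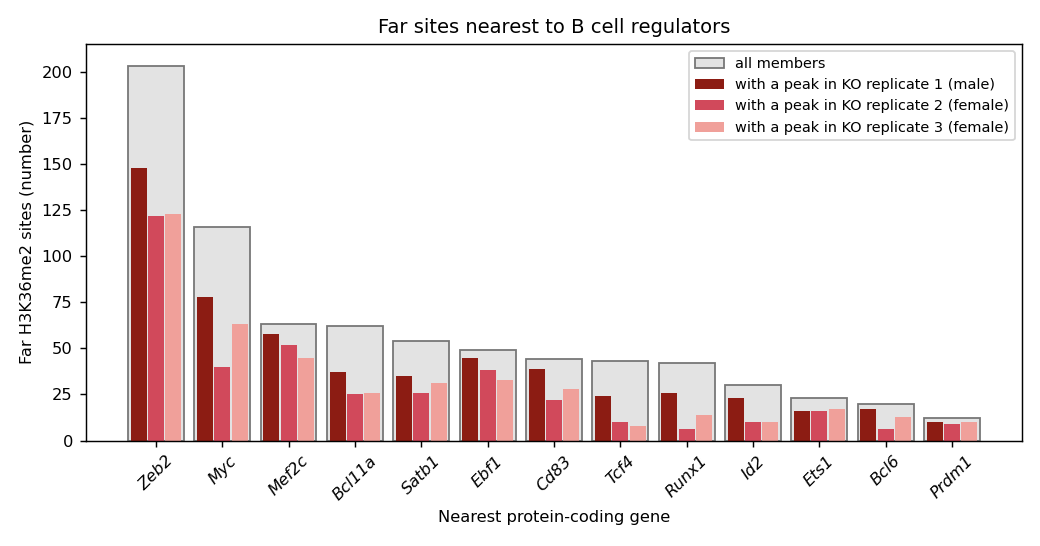
Number of far H3K36me2 sites (vertical axis) whose nearest protein-coding gene is each of the 13 B cell regulators with the most far sites. Grey bars give all far sites and coloured bars those with a peak in each KO H3K36me2 list, and at Mef2c 58, 52 and 45 of 63 sites had a peak in KO replicates 1, 2 and 3.

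The KO lists held 73.1, 50.0 and 54.9% of the far sites beside B cell regulators in replicates 1, 2 and 3, above the 63.6, 36.02 and 38.3% of all far sites. Sites 1 bp to 50 kb from these genes had KO shares of 79.8, 44.6 and 50.6%. Those of all sites in that distance class were 65.1, 31.0 and 34.5%, so the higher shares are not particular to far sites. At Mef2c 53 of 63 sites were in all 3 WT lists, and 2 had no peak in any KO list. At Ebf1, 45, 38 and 33 of 49 sites had a peak in KO replicates 1, 2 and 3, and 1 had none. The regulators named next had lower KO shares than Mef2c and Ebf1 in each KO list, though not all were below the shares of the whole group. At Tcf4, an E protein gene of the B lineage, the KO lists held 24, 10 and 8 of 43 sites, and 16 had no KO peak. At Id2 they held 23, 10 and 10 of 30, and at Bcl6 17, 6 and 13 of 20. At Myc the KO lists held 78, 40 and 63 of 116 sites, and at Runx1, a haematopoietic transcription factor gene, 26, 6 and 14 of 42. The sites beside the listed regulators were wider than far sites in all, with a median of 2810 bp, and poorer in GC, with 41.1%. The part of width and GC in their KO shares was not tested. Neuronal adhesion and synapse genes, which act mainly in neurons, were nearest to 144 far sites, with KO shares of 50.0, 25.7 and 29.9%. Zinc finger genes of the Zfp series were nearest to 202, of which 88 belonged to Zfp608, with KO shares of 58.9, 24.3 and 28.2%. Olfactory and vomeronasal receptor genes were nearest to 47, with 72.3, 44.7 and 48.9%.

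Some long noncoding RNA genes held many far sites. In all, 488 lncRNA genes held at least 1. The lncRNA gene 2610307P16Rik on chromosome 13, beside the transcription factor gene Sox4, held 68. Gm12068, beside Bcl11a, held 39, and Gm41333, beyond Myc, held 32. At 2610307P16Rik the KO lists held 48, 26 and 25 of the 68, and none of them had a KDM2A peak in any list. At Gm12068 the KO lists held 21, 12 and 16 of 39, and at Gm41333 they held 21, 13 and 21 of 32. Neither of these had a KDM2A peak at any of its far sites. Of all 1600 far sites over a lncRNA gene, 10.4% had a KDM2A peak in any list, against 8.88% of all far sites. The lack of KDM2A at these lncRNA genes is thus not general.

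The antigen receptor loci differed in how many far sites they held. The Igk span held 234, of which 44 overlapped a segment. Igh held 16, Igl 14, Tra 12, Trd 10 and Trg 7, where Trd lies inside Tra and shares its sites. Trb held none. Of the far sites in Igk, 106, 73 and 73 had a peak in KO replicates 1, 2 and 3, and 2 had a KDM2A peak. At Igl 11, 10 and 9 of 14 sites had a KO peak and none lacked one in all 3 KO lists. Because B cells rearrange and delete parts of the immunoglobulin loci, the copy number under a site there may differ between cells, and this was not measured.

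The 16 Igh sites fell into an arm over the constant genes and an arm over the V segments. Of them 8 sites, named here after their values were seen, lay between Ighg2b and Ighd. The site at chr12:113336766-113346647, 6242 bp upstream of Ighg1 and 9576 bp from Ighg3, had a peak in all 12 lists. In the heavy chain locus, each class switch region lies upstream of its constant gene, and interleukin 4 is known to direct switching to Ighg1. The H3K36me2 folds there were 2.89, 3.10 and 2.65 in WT and 2.93, 2.68 and 2.55 in KO, which overlap. Its KDM2A folds were 4.25, 3.19 and 4.14 in WT and 2.77, 2.96 and 3.29 in KO. The highest KO value lay above the lowest WT value, so the KDM2A folds overlap too. The site at chr12:113319731-113325062, 177 bp downstream of Ighg1, had a KDM2A peak in all 3 WT lists (2.63, 3.09 and 2.70) and in no KO list, while its H3K36me2 peak was in all 6 lists. The site next to it towards Ighg2b, at chr12:113312426-113318310, went the other way, with a KDM2A peak in no WT list and in KO replicates 1 and 3 (2.56 and 2.50). A further site, at chr12:113333896-113334371, had a KDM2A peak in 1 WT and 2 KO lists. The sites at chr12:113334530-113336033 and chr12:113391222-113398442 had one in 3 and 2 WT lists and in no KO list. Of the 6 Igh sites with KDM2A, 3 thus had it in WT lists only, 1 in KO lists only and 2 in both.

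The locus of miR-155 has far sites beside it as well. Mir155hg, the host gene of miR-155 at chr16:84703167-84715245, is a lincRNA gene, and a run of 20 far sites, chosen after its values were seen, lay 35.9 to 125.0 kb before its start, at chr16:84578135-84667263. Of the 20 sites, 18, 15 and 20 had a peak in WT replicates 1, 2 and 3, and 19, 9 and 11 in KO replicates 1, 2 and 3. All but 1 of them had a peak in at least 1 KO list, and 4 had a KDM2A peak. Of all far sites, 24.2% had no peak in any KO list and 8.88% had a KDM2A peak in any list. The labelled deletion could not be checked from the peak lists: the hairpin itself had a KDM2A peak in WT replicate 3 and no other peak in the 12 lists, while a KDM2A peak lay over Mir155hg in all 6 KDM2A lists, KO included.

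The KO lists were then set against the far sites one library at a time. KO replicate 1 held a peak at 63.6% of the far sites, KO replicate 2 at 36.02% and KO replicate 3 at 38.3%. In all, 1813 far sites (24.2%) had no peak in any KO list, 2430 had one in a single list, 1862 in 2 and 1397 in 3. Of the 2430, 1696 were in KO replicate 1 alone. A peak in at least 2 KO lists was found at 3259 far sites (43.4%), against 35.8% of all 51180 sites. No KO peak was found at 24.2% of far sites, against 27.8% of all sites. The lists differed in length: KO replicate 1 had 106528 autosomal H3K36me2 peaks, above every WT list (85274 to 93535), while KO replicates 2 and 3 had 37254 and 44982. The number of reads behind each list is unknown.

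Far sites that all 3 KO lists held were wide, with a median of 4793 bp, and those in no KO list were narrow, with 1409 bp. In the narrowest quartile of all sites, the KO lists held 37.2, 15.5 and 15.2% of the far sites in replicates 1, 2 and 3, and in the widest quartile 91.7, 64.9 and 68.2%. Where a KO peak was present, the median part of the site under a peak was 30.7, 25.6 and 22.2% in KO replicates 1, 2 and 3. In the WT lists it was 50.3, 66.3 and 63.8%. The WT lists chose the site borders, so this cover cannot be compared between genotypes. Clustered sites were more often present in the KO lists: sites in clusters of 10 or more had KO shares of 66.9, 39.4 and 41.4%, and sites standing alone 41.5, 18.99 and 22.5%. Median width fell in the same order, from 2366 to 1673 bp, and its part in these shares was not tested.

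Because the far sites were chosen by the WT lists, the WT and KO shares above cannot be compared. Sites were therefore rebuilt 3 times from 2 WT lists only, both of which had to hold a peak, and the WT list left out was scored beside the KO lists. This gave 5813, 5570 and 5314 far sites with WT replicates 1, 2 and 3 left out. The left-out WT list recovered 69.8, 78.9 and 80.0% of the far sites (mean 76.2% ± 5.59 SD, n = 3). The KO lists, averaged over the 3 sets of sites, recovered 72.9, 45.6 and 47.8% (mean 55.5% ± 15.2 SD, n = 3). KO replicate 1 lay above WT replicate 1 (by 3.10 points), while KO replicates 2 and 3 lay far below every WT list. The difference of the means was -20.8 percentage points, with an exact two-sided permutation p = 0.2 over 3 against 3 libraries, where the smallest p that can be reached is 0.1. With every list trimmed to the same number of its strongest peaks, the difference shrank to -7.38 points, the groups no longer overlapped and the exact permutation p was 0.1. In that setting KO replicate 1 lay below WT replicate 1, with a difference of -8.68 points in the male pair and -6.73 points between the female means.

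The same recovery was measured at genic sites. The left-out WT lists recovered 66.7, 72.3 and 74.3% of genic sites, and the KO lists 66.3, 32.4 and 34.9%. Each of the 6 libraries recovered a larger share of far than of genic sites. The excess was 3.08, 6.57 and 5.68 points in WT replicates 1, 2 and 3, and 6.61, 13.2 and 12.9 points in the KO replicates. Over the 6 libraries the mean excess was 8.02 points, with an exact two-sided sign-flip permutation p = 0.03125, the smallest that 6 libraries can give, and p = 0.109 after Benjamini-Hochberg adjustment over the 7 exact tests made here. Sites 1 bp to 50 kb from a gene stood above genic sites too. The left-out WT lists recovered 72.5, 78.6 and 80.4% of them and the KO lists 73.8, 40.3 and 44.1%. In WT replicates 1 and 3 and KO replicate 1 these values lay above those of the far sites, so the excess over genic sites is not particular to far sites. Within each of 4 classes of site width, the KO share of far sites was also above that of genic sites in each of the 3 KO lists, by 1.92 to 12.7 points.

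**Figure D2:**
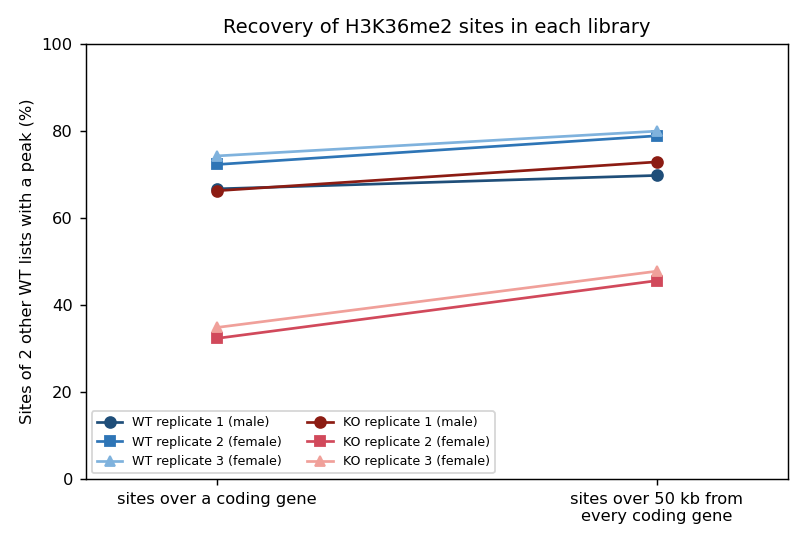
Share of H3K36me2 sites (per cent, vertical axis) built from 2 WT lists that had a peak in a further list, for genic sites and far sites. Each line is 1 library, WT in blue and KO in red, with KO values averaged over the 3 sets of sites, and all 6 lines rise from genic to far sites, by 3.08 to 13.2 points.

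The ratio of far to genic recovery separated the genotypes in these libraries, but the design cannot pass a threshold of 0.05. The WT lists had ratios of 1.05, 1.09 and 1.08 and the KO lists of 1.10, 1.41 and 1.37 (means 1.07 ± 0.0228 and 1.29 ± 0.168 SD, n = 3). The difference was 0.221, with an exact two-sided permutation p = 0.1 (adjusted 0.14). Every KO library lay above every WT library. Recovery at sites 1 bp to 50 kb from a gene, relative to genic sites, was also higher in every KO than in every WT library. The separation is thus not particular to far sites. The male pair differed by 0.0535 and the female means by 0.305. The genotypes overlapped with lists of equal length (difference 0.122, exact permutation p = 0.2), for sites over 100 kb from genes (0.232, p = 0.2) and at a −log10 q of at least 2 (0.0843, p = 0.8), where KO replicate 1 (1.01) lay below all 3 WT lists. Averaging over 4 classes of GC content in place of all sites, an alternative chosen after the data were seen, lowered the difference to 0.131.

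GC content moved with recovery in the female KO libraries. At far sites in the quartile lowest in GC, KO replicates 2 and 3 recovered 54.5 and 52.5%, and in the quartile highest in GC 26.7 and 34.8%. KO replicate 1 went the other way, from 67.1 to 77.8%, as did WT replicate 1, from 65.4 to 75.9%. WT replicates 2 and 3 stayed between 77.2 and 82.6% in all 4 classes. Far sites are poorer in GC than genic ones. Within each of the 4 classes the far share was above the genic share in all 6 libraries, and the excess was smaller in the highest class. In the lowest class it was higher by 7.52 to 11.8 points and in the highest class by 2.41 to 6.54 points. The part of GC content in the excess at far sites, and in the difference between genotypes, was not tested.

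**Figure D3:**
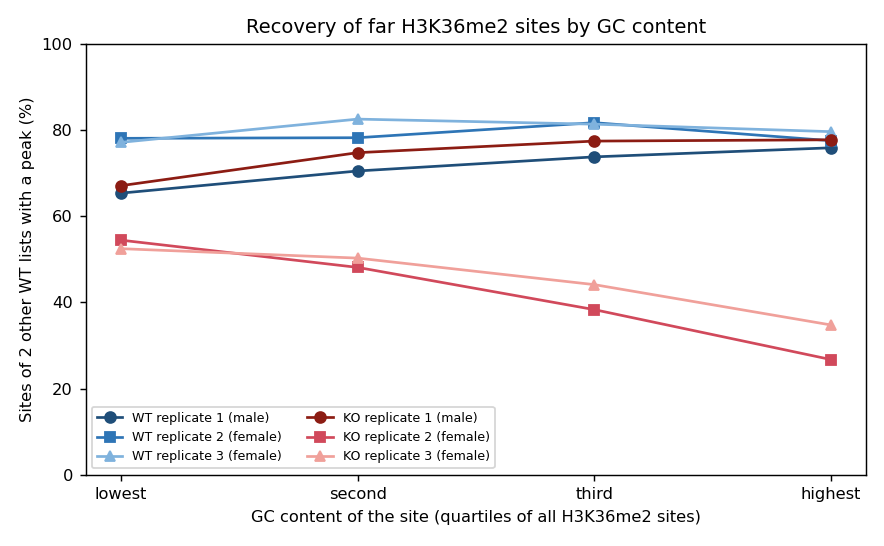
Share of far H3K36me2 sites (per cent, vertical axis) built from 2 WT lists that had a peak in a further list, by the GC content of the site in quartiles of all sites. Each line is 1 library, and KO replicates 2 and 3 fall with GC content, from 54.5 and 52.5% to 26.7 and 34.8%.

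Beyond 50 kb from genes, distance changed recovery little in the female KO libraries. KO replicate 2 recovered 44.5% of sites 50 to 100 kb from a gene, 46.6% at 100 to 200 kb, 46.4% at 200 to 500 kb and 45.2% beyond 500 kb. KO replicate 3 recovered 48.2, 47.5, 47.5 and 47.7% in the same classes. The other 4 libraries were lower beyond 500 kb than at 50 to 100 kb. WT replicates 1, 2 and 3 went from 72.5, 79.3 and 81.2% to 60.7, 72.0 and 71.6%, and KO replicate 1 from 75.2 to 62.0%.

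**Figure D4:**
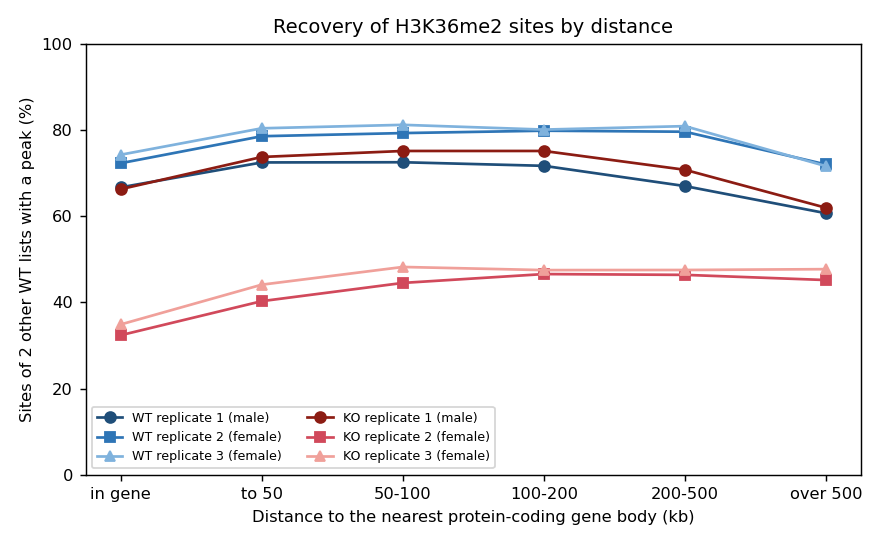
Share of H3K36me2 sites (per cent, vertical axis) built from 2 WT lists that had a peak in a further list, by distance to the nearest protein-coding gene body in kb. Each line is 1 library, and KO replicates 2 and 3 stay between 44.5 and 48.2% in the 4 classes beyond 50 kb.

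Counting each list's own peaks gave a measure that uses no WT sites. Of the autosomal H3K36me2 peaks under 10 kb, 15.5, 15.7 and 15.9% lay over 50 kb from a coding gene in WT replicates 1, 2 and 3, and 16.4, 20.4 and 20.3% in KO. All 3 KO values were above all 3 WT values. The means were 15.7% ± 0.202 and 19.01% ± 2.25 (SD, n = 3), a difference of 3.32 points with an exact two-sided permutation p = 0.1 (adjusted 0.14). The male pair differed by 0.924 points. The genotypes overlapped when the distance limit was 100 kb (difference 1.93 points, exact permutation p = 0.3) and when genes of every biotype counted (0.673 points, p = 0.2). In absolute terms less of the far territory was under a peak in KO: 2.10, 1.16 and 1.04% in replicates 1, 2 and 3, against 2.34, 3.10 and 3.05% in WT. Over all autosomes the peaks covered 4.12, 1.80 and 1.64% in KO against 4.74, 6.04 and 5.95% in WT, so the lower cover was not particular to the far territory.

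Where a peak was present in all 6 H3K36me2 lists, its height did not separate the genotypes. There were 8518 such intervals on the autosomes, of which 1279 held a far site. With limma on log2 fold centred on each library's median, 0 of 8518 intervals (0%) passed an adjusted p of 0.05, and 482 (5.66%) had an unadjusted p under 0.05. Among the 1279 that held a far site, 0 passed, 87 had an unadjusted p under 0.05, and the median log2 difference, KO minus WT, was 0.01 with a median standard error of 0.07. The smallest adjusted p was 0.875. The WT lists that chose the far sites are part of this fit. Only intervals called in every H3K36me2 list enter this comparison, so sites missing from a KO list are not among them.

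The 5 far sites with the highest mean KO fold, among those in all 6 lists, lay near Ly86, Hmgn3, Nfkbiz, Sertad2 and Gadd45g. The highest was 81.0 kb from Ly86, which encodes MD-1, the partner of the Toll-like receptor relative CD180 on B cells. Its folds were 2.70, 2.79 and 2.75 in WT and 4.19, 2.85 and 3.10 in KO, so every KO value was above every WT value. The site 56.6 kb from Sertad2 had 2.72, 2.57 and 2.63 in WT and 3.14, 3.44 and 3.12 in KO, again without overlap. Folds centred on the library median did not overlap between genotypes at 157 of the 1279 intervals with a far site (12.3%), against 970 of all 8518 intervals (11.4%), so a lack of overlap at single sites is near its background. The site 109 kb from Nfkbiz, an inducible regulator of NF-kB targets, had 3.31, 2.58 and 2.67 in WT and 3.40, 2.62 and 3.70 in KO, which overlap. The others were 112 kb from Hmgn3 and 67.1 kb from Gadd45g, a stress response gene. These sites were picked for high KO folds, so their direction is a description.

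A peak in all 3 WT lists and no KO list was found at 332 far sites (4.43%), against 5.41% of all 51180 sites. The strongest of these, 57.8 kb from Pdia4, is the WT-only sequence shown above. It was 325 bp wide, had WT folds of 3.29, 3.62 and 3.59, and lay 958 bp from a gap in the assembly. The site 93.4 kb from Gm4070 was wholly repeat sequence and lay 18447 bp from a gap. The part of repeats and gaps in these calls was not tested. The site 135.7 kb from Hes1, a Notch target gene, had WT folds of 3.10, 3.30 and 2.47, and those near Gm11361 and Mdfic had mean WT folds of 2.83 each.

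KDM2A was rare at far sites. A peak in any of the 6 KDM2A lists was found at 666 far sites (8.88%), against 24.8% of all 51180 sites. At least 2 WT KDM2A lists held a peak at 83 far sites (1.11%), against 9.03% of all sites. At least 2 KO lists held one at 38 (0.507%), against 5.64% of all sites. The KDM2A lists were not used to choose the sites, but these shares are not free of the rule. It removes sites near coding genes, and it uses WT H3K36me2 lists only. A gene start of any biotype lay within 2 kb of the centre of 14.0% of genic and 6.49% of far sites. Of those, 60.2% of the genic and 12.3% of the far sites had a KDM2A peak in any list. The part of the rule and of gene starts in these shares was not tested. By library, the share of far sites with a KDM2A peak was 3.29, 2.13 and 2.68% in WT replicates 1, 2 and 3 and 0.960, 1.17 and 2.03% in KO. Genic sites had a KDM2A peak in 15.8, 12.7 and 14.0% (WT) and in 8.70, 8.14 and 11.6% (KO). All 6 libraries were lower at far sites, with a mean difference of -9.77 points, far minus genic, and an exact two-sided sign-flip permutation p = 0.03125, the smallest that can be given (adjusted 0.109).

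**Figure D5:**
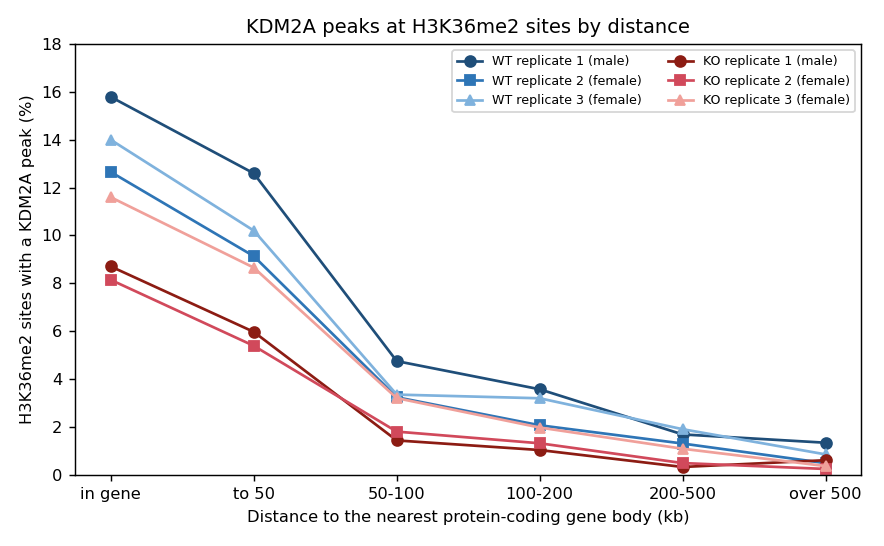
Share of H3K36me2 sites with a KDM2A peak (per cent, vertical axis) by distance of the site to the nearest protein-coding gene body in kb. Each line is 1 KDM2A library, and the share falls from 8.14 to 15.8% in genes to 0.244 to 1.34% beyond 500 kb.

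Within the far sites all 6 KDM2A libraries had a lower share beyond 500 kb than at 50 to 100 kb. From 200 to 500 kb to beyond 500 kb the share was 0.326% (6 sites) and then 0.609% (5 sites) in KO replicate 1, while it was lower beyond 500 kb in the other 5 libraries. In WT replicate 1 it was 4.75% at 50 to 100 kb, 3.57% at 100 to 200 kb, 1.69% at 200 to 500 kb and 1.34% beyond 500 kb. GC content moved with the same share. In the quartile of sites lowest in GC, 1.59% of far and 3.61% of genic sites had a peak in WT replicate 1, and in the quartile highest in GC 9.23 and 32.2%. The difference, far minus genic, was -2.03 points in the lowest class and -23.0 points in the highest class of that library. CpG density was not held equal within these classes, and the part of GC content and CpG density in the lower share at far sites was not tested.

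The KO KDM2A lists held fewer of the far sites than the WT lists. All 3 KO values were below all 3 WT values, and the means were 1.39% ± 0.564 and 2.70% ± 0.580 (SD, n = 3). The difference of -1.32 points had an exact two-sided permutation p = 0.1 (adjusted 0.14), the smallest that 3 against 3 libraries allow. Genic sites showed the same order, with means of 14.1% in WT and 9.48% in KO (-4.66 points, exact permutation p = 0.1), and the ratio of far to genic share overlapped between genotypes (means 0.190 and 0.143, p = 0.2), so the lower KO share is not particular to far sites. The KO KDM2A lists were also shorter, with 15241 to 21483 autosomal peaks against 23138 to 29016. With all lists trimmed to the same number of strongest peaks, the difference was -0.356 points and the exact permutation p was 0.2. Of each list's own KDM2A peaks, 7.53, 5.66 and 7.98% were far in WT replicates 1, 2 and 3, and 4.63, 5.88 and 7.41% in the KO replicates. These ranges overlap, and the difference of -1.08 points had an exact permutation p = 0.4 (adjusted 0.4). At a −log10 q of at least 2 the far shares were 4.10, 3.21 and 3.78% in WT replicates 1, 2 and 3 and 2.13, 2.45 and 2.69% in the KO replicates, without overlap (-1.27 points, exact permutation p = 0.1), and with a limit of 20 kb the difference was -1.81 points. With lists of equal length it reversed to 0.581 points (exact permutation p = 0.3), and it was -0.413 without KO replicate 1, -0.620 without WT replicate 3, -1.78 without WT replicate 2 and -1.80 without KO replicate 3.

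As a description, the far sites that did carry KDM2A were richer in CpG and closer to genes. The 54 sites with KDM2A peaks in at least 3 lists had a median of 12.2 CpG per kb, a GC content of 49.3% and a distance of 86529 bp to a coding gene. The 6836 sites with none had 6.72 CpG per kb, 42.3% and 145270 bp. There were 5 far sites with a KDM2A peak in all 6 lists. Of these, 4 are described here. The strongest of the 4 was the site upstream of Ighg1 described above. The site 82.2 kb from Cebpb, a transcription factor gene of the acute phase and myeloid cells, had 20.2 CpG per kb and KDM2A folds of 2.97, 4.25 and 3.25 in WT and 3.39, 2.98 and 2.63 in KO. The site 51.2 kb from Ezh2, the lysine 27 methyltransferase of germinal centre B cells, had 24.6 CpG per kb and folds of 3.22, 3.28 and 3.11 in WT and 2.59, 2.83 and 3.12 in KO. The site 61.8 kb from Wnt7b had the lowest mean of the 4, at 2.63. In each of these 4 the highest KO value lay above the lowest WT value. Their H3K36me2 was called in all 3 WT lists, and in 3 KO lists at the Ighg1 and Cebpb sites, 2 at the Ezh2 site and 1 at the Wnt7b site.

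The 3 sites farthest from coding genes all lay in the middle of the Igk locus, 1606 to 1611 kb from the nearest one. The farthest, whose AT-rich sequence is shown above, had WT folds of 2.64, 2.54 and 2.45 and a fold of 3.10 in KO replicate 3 only. None of the 3 had a KDM2A peak. Among far sites over antigen receptor segments, 3 had a peak in all 3 KO lists with the highest folds. The site over Trdc and the Traj59 to Traj61 segments, at chr14:54148018-54156962, had 3.11, 2.58 and 2.61 in WT and 3.32, 2.97 and 2.66 in KO, which overlap. The site over the V segment Igkv2-109 had a peak in 2 WT lists (2.35 and 2.52) and in all 3 KO lists (2.84, 2.94 and 2.90). The last of them is the Igh site at chr12:113312426-113318310 described above, which overlaps Gm37944. It had 3.04, 2.68 and 2.47 in WT and 3.18, 2.72 and 2.78 in KO, which overlap too.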

How the data were processed

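The 12 peak lists, 3 per genotype and antibody, were made by the authors with the nf-core/chipseq pipeline: reads were aligned with BWA to GRCm38 and broad peaks called with MACS2 in each library. The deposited columns used are the fold over input (a ratio), the −log10 q value and the peak position. The deposited −log10 p value and score were read but decide no result. Every listed peak has a −log10 q of at least 1. No list holds reads, so depth is unknown and folds are not normalised between lists. The 6 input libraries were not used here.

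Distances were taken to GENCODE M21 genes on GRCm38, and GC, CpG, repeats and gaps were read from RefSeq GRCm38.p6. The members, gene lists and tests were chosen with earlier results of these data known. Libraries were compared by exact permutation and sign-flip tests, and peak height by limma 3.58.1 in R 4.3.3 (trend, Benjamini-Hochberg), tested on simulated data. Other work used Python 3.11.15. The sites named are those ranked highest by KO fold, by WT fold with no KO peak and by KDM2A lists (5 each), the 3 largest clusters, the 3 farthest sites, 3 over receptor segments and 3 lncRNA genes, with exceptions said to be chosen after their values were seen. Of the sites with KDM2A, 1 is not reported here. Alternatives covered distance, gene classes, q value, list length, overlap, merging, width, replicate block and each library left out. P-values measure the spread between these libraries only.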

Additional observations from a re-analysis of the deposited data

Results flagged for a closer look

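With lists at full length, recovery of far H3K36me2 sites moved in opposite directions in the sexes. In the male pair (replicate 1 of each genotype) the KO list recovered 3.10 percentage points more of the far sites than the left-out WT list, while the female means differed by -32.7 points, KO minus WT. No test compared males with females, as each genotype has 1 male library, and sex and replicate 1 cannot be told apart. The male difference turned negative with lists of equal length (-8.68 points, against -6.73 for the female means), at a −log10 q of at least 2 (-1.94 and -24.2) and when peaks had to cover at least 50% of the site (-5.03 and -34.0). No group had more than 3 libraries, so single libraries were not tested as outliers.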

How the results depend on the processing

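Over 9 results, 125 alternatives were run and 1 reversed a direction. The tests of 3 against 3 libraries cannot pass 0.05 under any of them, so their stability is read from the values. The number of far sites was 11751 over 20 kb, 4786 over 100 kb, 1609 when genes of every biotype counted, 591 at a −log10 q of at least 2, 2714 with lists of equal length and 3508 with a peak in all 3 WT lists (5314 to 5813 leaving out 1 WT list). The far share of KDM2A peaks reversed to 0.581 points with lists of equal length; the cause was not tested. The far-minus-genic excess over libraries was 6.97 to 9.00 points for H3K36me2 and -10.3 to -9.22 points for KDM2A leaving out 1 library, and 9.60 and -9.59 points in the female libraries alone; fewer libraries cannot reach 0.05 (5 give at least 0.0625). The KDM2A difference at far sites was -3.05 points at a −log10 q of at least 2, -0.120 with peaks over at least 50% of the site, -0.356 with lists of equal length and -0.806 in females; the recovery ratio difference ran from 0.0843 at the stricter q value to 0.531 with that cover. Leaving out 1 library gave -1.80 to -0.413 points for the KDM2A far share. Leaving out KO replicate 1 moved the far-site recovery difference to -29.5 points. The number of limma calls was 0 in every setting, with 356 to 544 intervals at an unadjusted p under 0.05. Same-numbered WT and KO libraries did not deviate together over the limma intervals (correlations 0.0084, 0.0029 and 0.010). These folds were centred on each library's median, so a shared batch or culture would not have to show. Whether the numbers pair the libraries therefore cannot be told from these values. With the replicate block, exact sign-flip p-values over 3 pairs were 0.25 for the H3K36me2 far share (3.32 points), 0.5 for far recovery (-20.8 points), 0.25 for its ratio to genic (0.221), 0.25 for KDM2A at far sites (-1.32 points) and 0.5 for the KDM2A far share (-1.08 points), where 0.25 is the smallest possible, and limma called 0 intervals. A smaller true effect than these spreads is not detectable with 3 libraries of unknown depth.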
